A study of Mus musculus with 6 samples.

Results

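The genes described here are the 4 Notch receptor genes Notch1, Notch2, Notch3 and Notch4 and the 5 ligand genes Dll1, Dll3, Dll4, Jag1 and Jag2. They were taken by symbol from the 18614 genes of the deposited table, after estimated counts had been summed per NCBI gene number, and all 9 were found. The RNA was from bulk tissue of the subventricular zone (SVZ) of the mouse, where adult neural stem cells line the lateral ventricle. There were 3 libraries labelled KO, titled as ZHX2 KO (Zhx2Δ/Δ in the protocol; Zhx2 is a homeobox transcription factor gene), and 3 wild-type (WT) libraries, Zhx2+/+ in the protocol. The genotype tags of KO 2 and KO 3 name ZHX3 and ZHX4 in place of ZHX2, and the labels give no age, sex, strain, driver line or number of animals. Since nothing says that the libraries came from separate animals, each p-value reflects variation among these libraries alone, some of which may be technical.

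Notch signalling passes between touching cells. A Delta-like or Jagged ligand on one cell binds a Notch receptor on its neighbour, the receptor is cut by an ADAM protease and then by gamma-secretase, and the freed intracellular domain joins the DNA-binding protein RBPJ to switch on Hes and Hey repressor genes. In the SVZ the pathway is known for keeping neural stem cells undifferentiated, while in brain vessels Notch1, Notch4 and Dll4 act in endothelium and Notch3 in mural cells.

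Libraries held between 17037152 and 17685906 estimated counts, so that a count of 0 allows up to 0.170 to 0.176 CPM (3 counts, counting error only). Zhx2 itself was higher, not lower, under the KO label: it had 1139, 1004 and 959 estimated counts in KO 1 to 3 and 735, 675 and 659 in WT 1 to 3. The groups did not overlap, and the log2 fold change was 0.61 (SE 0.10; adjusted p = 0.163 in edgeR and 0.00142 in DESeq2). Every direction below is therefore that of the libraries labelled KO. The groups also differed in the markers of other tissue. All 13 choroid plexus markers were lower in every KO-labelled library than in every WT library, with summed levels of 46.7, 198 and 86.7 CPM in KO 1 to 3 and 17987, 12084 and 3662 CPM in WT 1 to 3, none of them at 0 in any library. Ependymal markers summed to 123, 109 and 86.3 CPM in KO 1 to 3 and 258, 169 and 174 CPM in WT 1 to 3, with 8 of 8 having a negative log2 fold change. Striatal projection neuron markers summed to 3540, 4722 and 4675 CPM in KO 1 to 3 and to 542, 7947 and 2299 CPM in WT 1 to 3, so that the groups overlapped, with WT 1 lowest and WT 2 highest. All 9 striatal markers had a positive log2 fold change, and 0 of them had groups that did not overlap. Microglial markers summed to 515, 595 and 473 CPM in KO 1 to 3 and to 395, 445 and 435 CPM in WT 1 to 3, without overlap. Of these markers 9 of 9 had a positive log2 fold change, 5 of them with groups that did not overlap. Over all tested genes, 8.74% were lower and 8.0% higher in KO-labelled libraries without overlap, and 46.6% had a negative log2 fold change.

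Of the 9 genes, Notch2 alone had groups that did not overlap, and it was lower in the KO-labelled libraries, at 49.9% of the WT mean. None of the 9 passed an adjusted p of 0.05 in edgeR's quasi-likelihood test with Benjamini-Hochberg adjustment over 15126 genes, where 0 genes passed (percent called 0). At an unadjusted p under 0.05 edgeR had 1 of the 9, Notch2, against 9.07% of all genes. DESeq2 called 1 of the 9, again Notch2, against 2.06% of the genes it tested (2.02% lower and 0.0397% higher), and limma-voom called none of the 9 and 0 of all genes. Groups that did not overlap were found in 1 of the 9 genes, against 16.7% of all genes. A negative log2 fold change was found for 5 of the 9 genes and 46.6% of all genes, and the medians were -0.06 and 0.02.

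**Figure D1:**
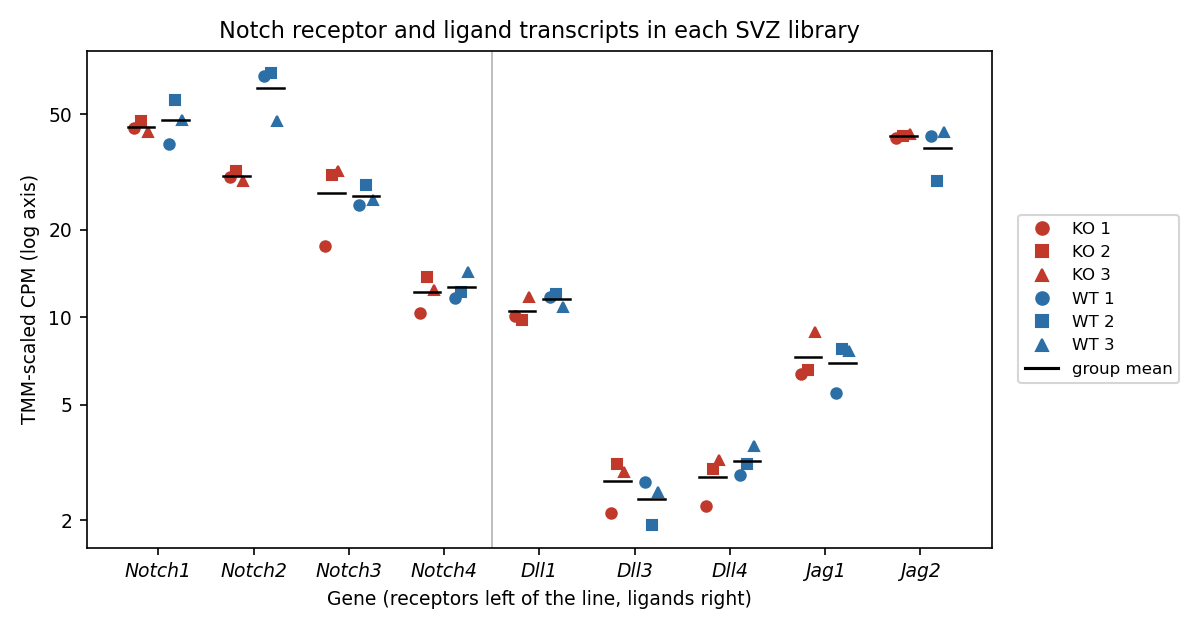
TMM-scaled CPM, counts scaled to library size (log axis), of the 9 genes in each library, with the 3 libraries labelled KO in red and the 3 WT libraries in blue, a symbol for each replicate number and a black bar for the group mean. For Notch2 the KO-labelled libraries lie between 29.5 and 31.96 CPM and the WT libraries between 47.2 and 69.1 CPM, while the groups overlap for the other 8 genes.

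Notch2 encodes a receptor known in the adult SVZ for holding stem cells in quiescence, and has 34 exons on the plus strand (mm10, chromosome 3, 98013538 to 98150367). The sequence upstream of its start is shown beside that of Notch1, the receptor nearest to it in mean level in WT, because these 2 receptors differed in how the groups compared. Both are RefSeq windows of assembly GRCm38.p6, the sequence of mm10, 300 bases across the gene's start, running 5′ to 3′ on its own strand, with GC boxes (GGGCGG, searched on both strands) in capitals. The Notch2 window is chr3:98013288-98013587 on the plus strand and the Notch1 window chr2:26503773-26504072 on the minus strand.
Notch2: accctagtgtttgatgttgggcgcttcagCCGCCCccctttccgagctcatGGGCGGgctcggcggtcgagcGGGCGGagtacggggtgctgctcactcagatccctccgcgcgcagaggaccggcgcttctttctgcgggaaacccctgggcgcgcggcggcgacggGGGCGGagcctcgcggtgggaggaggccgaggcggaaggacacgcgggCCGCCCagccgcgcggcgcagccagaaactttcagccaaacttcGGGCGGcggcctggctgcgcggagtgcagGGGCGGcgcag
Notch1: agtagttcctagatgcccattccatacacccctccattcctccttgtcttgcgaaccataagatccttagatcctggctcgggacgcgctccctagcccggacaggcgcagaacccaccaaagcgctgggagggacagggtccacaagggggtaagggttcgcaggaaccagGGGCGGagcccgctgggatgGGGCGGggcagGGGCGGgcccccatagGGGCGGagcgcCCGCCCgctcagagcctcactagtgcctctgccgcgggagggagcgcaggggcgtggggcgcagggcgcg
The Notch2 window held 7 GC boxes and 41 CpG dinucleotides at 73.0% G and C, and the Notch1 window 5 GC boxes and 23 CpG at 68.3%. Of 32851 promoter windows of this length, 35.7% held at least 1 GC box. Both windows thus held several, the Notch2 window more. A count of GC boxes is a description of these letters only, and its part in the group difference was not tested.

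Notch2 was at 30.5, 31.96 and 29.5 CPM in KO 1 to 3 and at 67.9, 69.1 and 47.2 CPM in WT 1 to 3. The 3 KO-labelled libraries lay close together and below all WT libraries, and WT 3 was the lowest of the WT libraries. The group means were 30.6 ± 1.25 CPM in KO-labelled libraries and 61.4 ± 12.3 CPM in WT (SD, n = 3 each). KO-labelled minus WT, the log2 fold change was -1.003 (SE 0.16, 95% interval -1.39 to -0.62), with an unadjusted p of 0.000482 in edgeR's quasi-likelihood test, the 46th smallest of 15126. Its adjusted p was 0.151 in edgeR, 0.383 in limma-voom and 6.84e-05 in DESeq2, and the exact permutation p over the 6 libraries (two-sided) was 0.1, below which 3 against 3 libraries cannot go. Without WT 3 the log2 fold change was -1.16 and edgeR's adjusted p 0.0143. There edgeR called 0.895% of all genes. DESeq2 still called Notch2 whichever of the 6 libraries was omitted, and over its fits the adjusted p ran from 1.52e-13 to 0.00675.

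Among WT libraries, WT 3 was lowest for Notch2 and for the choroid plexus markers, while WT 1 and WT 2 were close for Notch2 and apart for the markers. WT 3 had 3662 CPM of choroid plexus markers, against 17987 CPM in WT 1 and 12084 CPM in WT 2, and Notch2 in WT 3 was at 47.2 CPM, above the highest KO-labelled library at 31.96 CPM. Among the KO-labelled libraries the marker sum ran from 46.7 to 198 CPM, far below the 3662 CPM of WT 3 throughout, and Notch2 was between 29.5 and 31.96 CPM. The part of choroid plexus content in the Notch2 difference was not tested. Markers of quiescent stem cells and astrocytes, taken as 1 list, summed to 5087, 4680 and 4611 CPM in KO 1 to 3. In WT 1 to 3 they summed to 4386, 3750 and 5101 CPM, so that the groups overlapped. Of these 8 markers 6 had a positive log2 fold change, and 1 was lower and 1 higher without overlap. Their part in the Notch2 difference was not tested either. In bulk tissue, fewer cells of a type and less RNA per cell cannot be told apart.

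**Figure D2:**
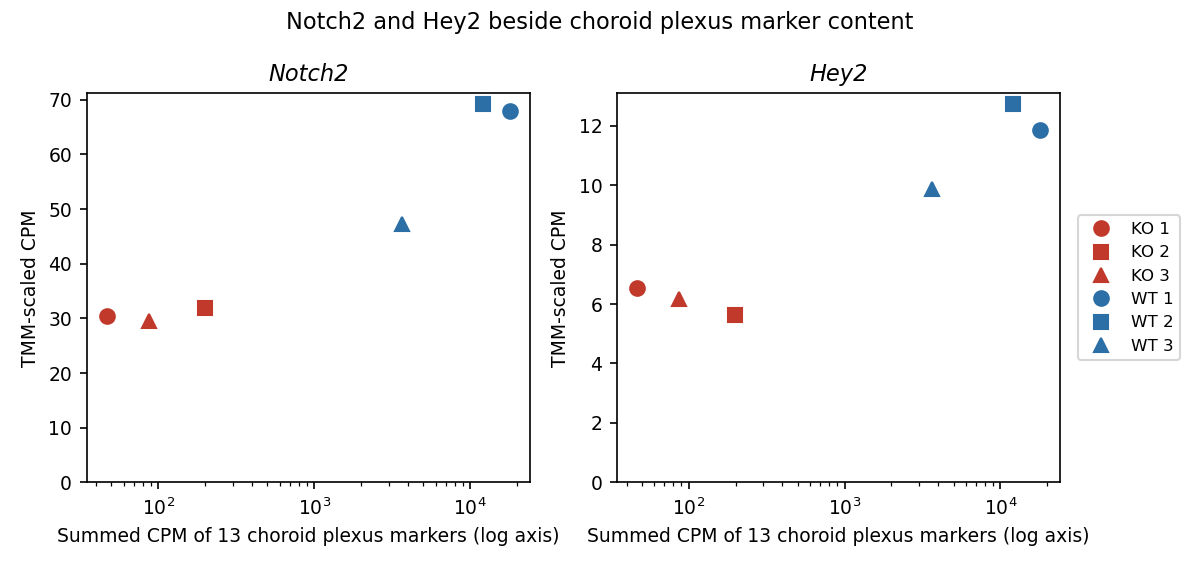
TMM-scaled CPM of Notch2 (left) and of the Notch target gene Hey2 (right) against the summed CPM of 13 choroid plexus markers (log axis), one point per library, with libraries labelled KO in red and WT in blue. The KO-labelled libraries sit at the low end of both axes, and WT 3, at 3662 CPM of markers, is the lowest WT point for both genes.

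The genes whose pattern over the 6 libraries was most like that of Notch2 were Trpv4, a cation channel gene of choroid plexus epithelium (Pearson r of log2 CPM 0.998), the homeobox gene Msx1 (0.998) and the sugar transporter gene Slc2a12 (0.997). This likeness is a description over 6 libraries and 10803 genes of at least 10 CPM, with points that share their library and fall into 2 groups. Their own log2 fold changes were -3.55, -3.28 and -3.05, well beyond the -1.003 of Notch2. They thus resembled Notch2 in the relative spacing of the libraries and not in size. For the other 8 genes, the 3 most alike genes had r between 0.955 and 0.997. Among receptors, Notch1 was nearest to Papss2, Znfx1 and Per1, Notch3 to Las1l, Syt2 and Emc8, and Notch4 to Fam193a, Unk and Ccdc57. Among Delta-like ligands, Dll1 was nearest to Hibadh, Ptchd1 and Zc3h6, Dll3 to Itm2c, Rps6ka2 and Eno1b, and Dll4 to Srrm2, Zdhhc5 and Mycbp2. Of the Jagged ligands, Jag1 was nearest to Syn3, Dcaf8 and Pcid2, and Jag2 to Nrxn2, Amy1 and Rassf5.

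Notch1, the receptor best known for neural stem cell maintenance (chromosome 2, 26457902 to 26503822, minus strand, 34 exons), differed from Notch2 in that its groups overlapped. It was at 44.8, 47.5 and 43.3 CPM in KO 1 to 3 and at 39.6, 55.8 and 47.7 CPM in WT 1 to 3. The KO-labelled libraries lay inside the range of WT, where WT 1 was lowest and WT 2 highest, the same order as for striatal markers. The part of striatal content in this order was not tested. Between groups the log2 fold change was -0.08 (SE 0.14, 95% interval -0.41 to 0.25; edgeR adjusted p = 0.894), and the -1.003 of Notch2 lies outside that interval. The ratio of Notch2 to Notch1 CPM was 0.680, 0.673 and 0.681 in KO 1 to 3 and 1.72, 1.24 and 0.990 in WT 1 to 3. That ratio was almost constant among the KO-labelled libraries and spread widely in WT, with no overlap.

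Notch3, a receptor of mural cells and progenitors (chromosome 17, 32120820 to 32166896, minus strand, 33 exons), was at 17.6, 30.9 and 31.8 CPM in KO 1 to 3 and at 24.4, 28.6 and 25.2 CPM in WT 1 to 3. KO 1 was the lowest library and the other KO-labelled libraries the highest, so that the groups overlapped and the KO-labelled spread was the wider one. The log2 fold change was 0.04 (SE 0.23, 95% interval -0.51 to 0.59; edgeR adjusted p = 0.975), and its sign was negative in 11 of 23 alternatives. Mural cell markers summed to 265, 486 and 306 CPM in KO 1 to 3 and 240, 305 and 303 CPM in WT 1 to 3, with 8 of 10 having a positive log2 fold change. None of the 10 was at 0 in any library. KO 1 was the lowest KO-labelled library for both Notch3 and these markers. Over all 6 libraries the marker sum was lowest in WT 1, at 240 CPM, where Notch3 was at 24.4 CPM. It was highest in KO 2, at 486 CPM, where Notch3 was at 30.9 CPM, below the 31.8 CPM of KO 3. The part of mural content in the Notch3 level was not tested.

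Notch4, a receptor of endothelium (chromosome 17, 34564286 to 34588543, plus strand, 30 exons), was at 10.4, 13.7 and 12.4 CPM in KO 1 to 3 and at 11.6, 12.2 and 14.3 CPM in WT 1 to 3. The groups overlapped, with KO 1 below all WT libraries and WT 3 above all KO-labelled ones (log2 fold change -0.06, SE 0.16, 95% interval -0.43 to 0.31; edgeR adjusted p = 0.931). Endothelial markers summed to 259, 315 and 260 CPM in KO 1 to 3 and 280, 334 and 295 CPM in WT 1 to 3. Of the 12 markers 6 had a positive and 6 a negative log2 fold change, none was at 0 in any library, and their median was 0.02. Without overlap, 3 of the 12 were lower and 1 higher in KO-labelled libraries, against 8.74% and 8.0% of all genes.

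**Figure D3:**
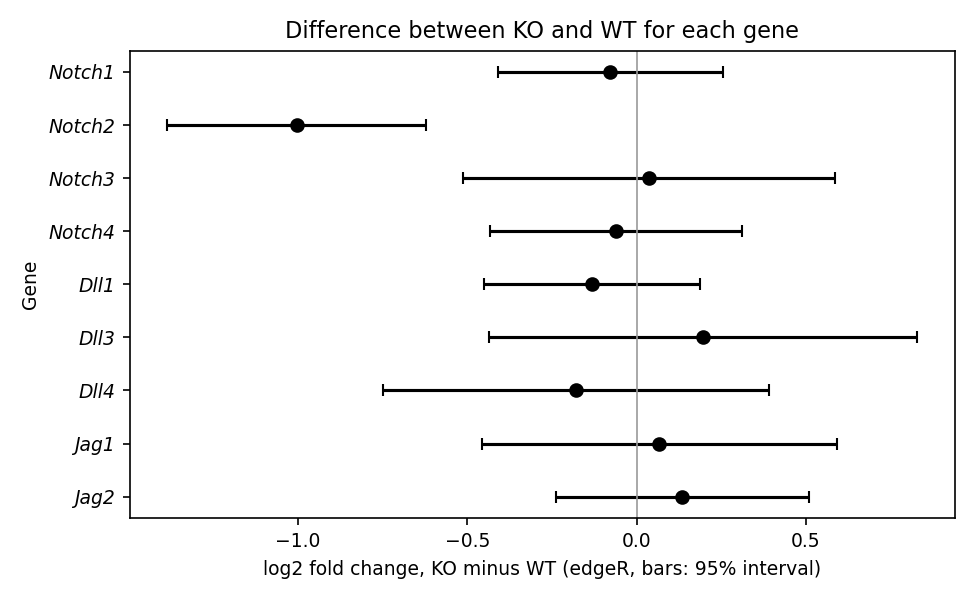
The log2 fold change of each of the 9 genes, KO-labelled minus WT, from edgeR, with bars for the 95% interval. The interval of Notch2, from -1.39 to -0.62, lies wholly below 0, and those of the other 8 genes include 0.

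Levels of different genes can be compared only per length, for which the deposited FPKM were summed over each gene's transcripts. In KO-labelled libraries the receptors ran Notch1 (4.67 ± 0.255 FPKM), Notch3 (3.29 ± 1.01), Notch2 (2.85 ± 0.137) and Notch4 (1.82 ± 0.273), and in WT libraries Notch2 (5.84 ± 1.19 FPKM), Notch1 (5.003 ± 0.695), Notch3 (3.25 ± 0.208) and Notch4 (1.94 ± 0.200; SD, n = 3 each). Notch2 was thus the receptor with the highest mean in WT, where its range overlapped that of Notch1, and stood below every Notch1 value in KO-labelled libraries. Notch2 took 25.4%, 21.7% and 21.1% of the summed receptor FPKM in KO 1 to 3, against 41.8%, 36.7% and 30.3% in WT 1 to 3.

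The summed receptor level was 10.98, 13.9 and 13.05 FPKM in KO 1 to 3 and 15.95, 17.4 and 14.8 FPKM in WT 1 to 3, without overlap. With Notch2 set aside it was 8.19, 10.85 and 10.3 FPKM in KO 1 to 3 and 9.28, 11.0 and 10.3 FPKM in WT 1 to 3, where the groups overlapped. Without Notch2 the group means were 9.78 ± 1.40 FPKM in KO-labelled libraries and 10.2 ± 0.865 FPKM in WT (SD, n = 3 each).

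**Figure D4:**
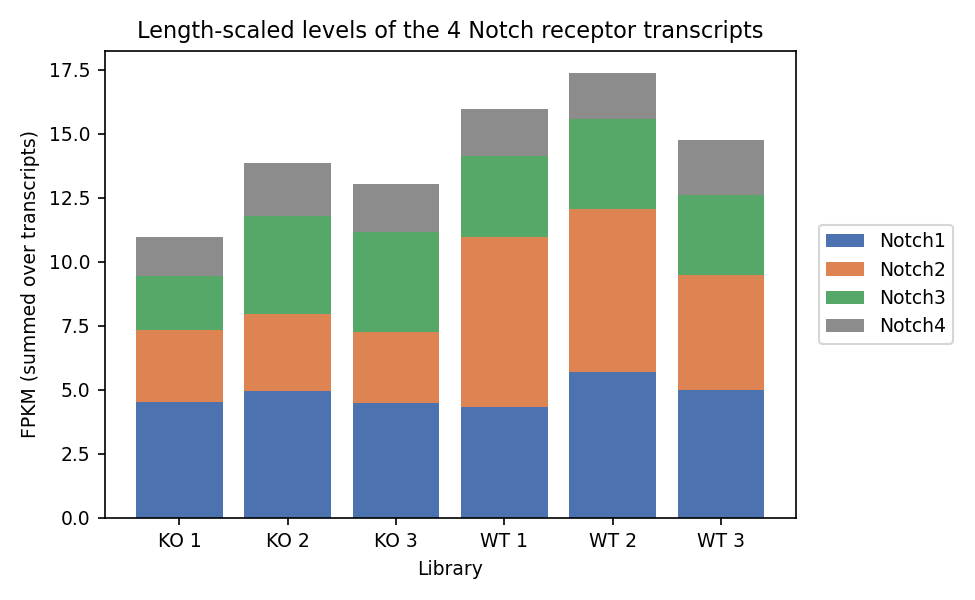
Stacked bars of the FPKM of the 4 receptor genes, summed over transcripts, in each library, with the KO-labelled libraries left of the WT libraries. The orange Notch2 segment is between 2.76 and 3.01 FPKM in KO-labelled libraries and between 4.47 and 6.67 FPKM in WT, while the other segments overlap between groups.

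Among the ligands, no gene separated the groups. The ligand sum was 13.8, 15.0 and 16.1 FPKM in KO 1 to 3 and 15.8, 12.4 and 15.9 FPKM in WT 1 to 3. The 5 log2 fold changes ran from -0.18 to 0.20 with a median of 0.07, and the lowest edgeR adjusted p was 0.796.

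Jag2, a Jagged ligand (chromosome 12, 112907803 to 112929812, minus strand, 26 exons), had the highest FPKM of all 9 genes in each group, at 8.70 ± 0.305 FPKM in KO-labelled libraries and 8.18 ± 1.83 FPKM in WT (SD, n = 3 each). On the CPM scale it was at 41.4, 42.2 and 42.7 in KO 1 to 3 and at 42.1, 29.5 and 43.3 in WT 1 to 3. WT 2, the library with the most striatal markers, stood apart at the low end, and the other 5 libraries differed little. WT 1, the library with the fewest striatal markers, lay inside the range of the KO-labelled libraries. The part of striatal content in the Jag2 level of WT 2 was not tested. The log2 fold change was 0.13 (SE 0.16, 95% interval -0.24 to 0.51; edgeR adjusted p = 0.829), and without WT 2 it was -0.03. Jag1 (chromosome 2, 137081451 to 137116520, minus strand, 26 exons), the other Jagged ligand, was at 6.36, 6.57 and 8.93 CPM in KO 1 to 3 and at 5.47, 7.74 and 7.66 CPM in WT 1 to 3. Its groups overlapped (log2 fold change 0.07, SE 0.22, 95% interval -0.46 to 0.59; edgeR adjusted p = 0.949).

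Dll1, a Delta-like ligand that progenitors present to stem cells (chromosome 17, 15367354 to 15376932, minus strand, 11 exons), was at 10.1, 9.79 and 11.7 CPM in KO 1 to 3 and at 11.7, 12.1 and 10.8 CPM in WT 1 to 3. Only KO 3 reached into the WT range (log2 fold change -0.13, SE 0.13, 95% interval -0.45 to 0.19; edgeR adjusted p = 0.796). Markers of progenitors and neuroblasts summed to 151, 212 and 204 CPM in KO 1 to 3 and 278, 148 and 207 CPM in WT 1 to 3, likewise overlapping. Of these markers 7 of 8 had a negative log2 fold change (median -0.08), against 46.6% of all genes, and 0 had groups that did not overlap.

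Dll4, the ligand of endothelial tip cells (chromosome 2, 119325784 to 119335666, plus strand, 11 exons), and Dll3, a relative that does not activate receptors on neighbouring cells (chromosome 7, 28293555 to 28301785, minus strand, 9 exons), were the scarcest. By count, Dll4 had 38, 52 and 55 estimated counts in KO 1 to 3 and 53, 52 and 62 in WT 1 to 3, and its log2 fold change was -0.18 (SE 0.24, 95% interval -0.75 to 0.39; edgeR adjusted p = 0.851). Dll3 had 36.0, 54.4 and 49.6 estimated counts in KO 1 to 3 and 49.8, 32.3 and 43.4 in WT 1 to 3, with a log2 fold change of 0.20 (SE 0.27, 95% interval -0.44 to 0.83; edgeR adjusted p = 0.851). Both pairs of groups overlapped, and at these counts the intervals were the widest of the 9.

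Per length, the ligands ran Jag2, Dll1, Jag1, Dll3 and Dll4 in both groups. Below Jag2, Dll1 was at 2.89 ± 0.297 FPKM in KO-labelled libraries and 3.23 ± 0.176 FPKM in WT (SD, n = 3 each). Jag1 and Dll3 did not differ beyond their ranges in either group: Jag1 was at 1.31 ± 0.265 and Dll3 at 1.25 ± 0.259 FPKM in KO-labelled libraries, against 1.24 ± 0.185 and 1.12 ± 0.219 FPKM in WT. Dll4 closed the order at 0.81 ± 0.159 FPKM in KO-labelled libraries and 0.927 ± 0.0987 FPKM in WT. Over all 9 genes, the neighbours in level whose ranges also overlapped in KO-labelled libraries were Notch3 with Dll1, Dll1 with Notch2, and Notch4 with Jag1. In WT they were Jag2 with Notch2, Notch2 with Notch1, Notch3 with Dll1, and Dll3 with Dll4.

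The table splits counts between the transcripts of some of these genes. Notch1, Notch2, Dll3 and Dll4 each had 1 transcript, so their values do not depend on such a split. For Notch4, nearly all counts went to one transcript in KO 1, KO 2, WT 2 and WT 3 (170, 235, 192 and 235 estimated counts) and to another of almost the same length in KO 3 and WT 1 (206 and 203). The split differed between libraries of both groups, while the gene total ran from 176 estimated counts in KO 1 to 246 in WT 3. Notch3 divided over 2 transcripts with 59.2% of counts on the first in KO-labelled libraries and 65.8% in WT, and in WT 2 the second had 0. Jag2 divided over 8 transcripts, the first with 64.3% of counts in KO-labelled libraries and 64.5% in WT. These are the authors' estimated splits between overlapping transcripts, and no isoform difference is drawn from them. Exons of Notch1, Notch3, Dll1 and Dll4 overlap those of a gene on the other strand in GENCODE M21, and the labels do not say that counting used strand, so reads of the overlap cannot be told apart. Exons of Notch2 overlap those of Gm42820, an annotation on the same strand that awaits experimental evidence (biotype TEC), where strand would not separate the reads.

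The wider pathway was described from 60 genes in 8 lists by role, of which 59 had enough counts to test. Of these, 28 had a positive and 31 a negative log2 fold change, with a median of -0.02. Over all genes 46.6% were negative and the median was 0.02. The adjusted p in edgeR passed for 0 of the 59. At an unadjusted p under 0.05, edgeR had 8 lower and 4 higher in KO-labelled libraries, where all genes gave 6.39% lower and 2.68% higher. Groups did not overlap for 11 lower and 8 higher genes, where all genes gave 8.74% and 8.0%. DESeq2 called 2 of the 59, both lower, against 2.02% of the genes it tested; limma-voom called none.

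**Figure D5:**
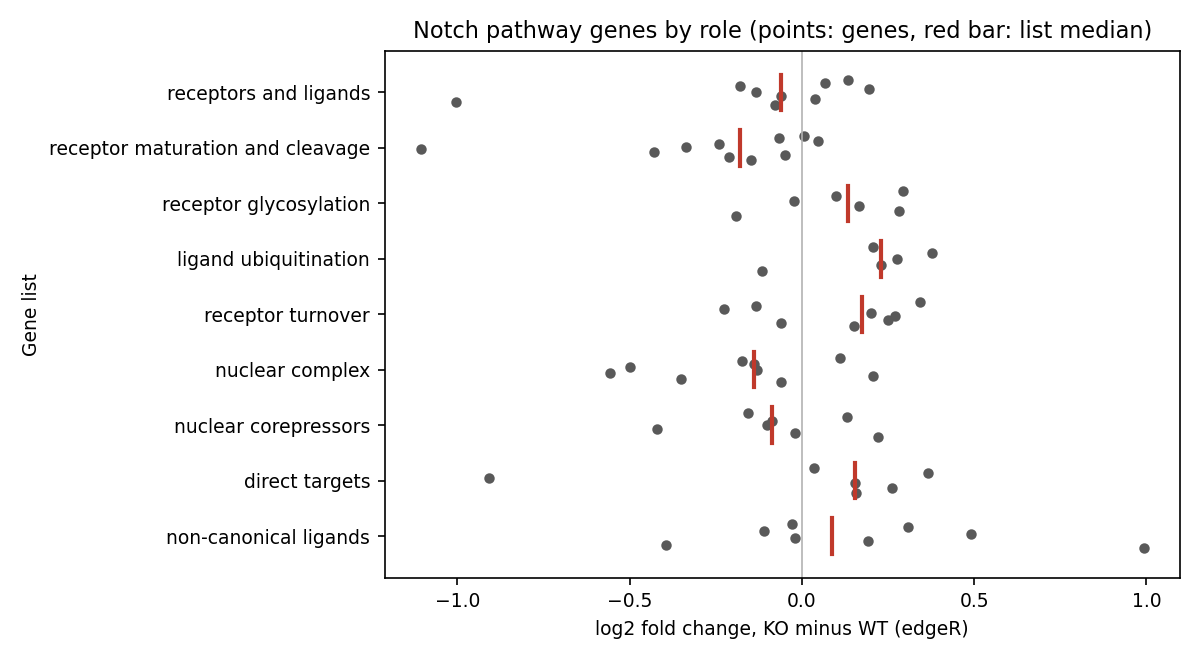
The log2 fold change, KO-labelled minus WT, of each receptor, ligand and pathway gene (points), by role, with a red bar for the median of each list. Most points lie within 0.5 of 0, and the lowest values are those of Notch2 (-1.003), Aph1c (-1.11) and Hey2 (-0.91).

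In the step that cuts the receptor, 8 of 10 genes had a negative log2 fold change (median -0.18), against 46.6% of all genes. Of the 10, 5 were lower in KO-labelled libraries without overlap, against 8.74% of all genes. Furin, the protease that matures the receptor on its way to the surface, was at 38.4, 38.4 and 39.8 CPM in KO 1 to 3 and at 52.4, 47.8 and 46.9 CPM in WT 1 to 3, without overlap (log2 fold change -0.34, SE 0.09, edgeR adjusted p = 0.331). Aph1c, a rodent gamma-secretase subunit gene, was at 6.48, 10.1 and 10.2 CPM in KO 1 to 3 and at 27.1, 17.5 and 13.1 CPM in WT 1 to 3, again without overlap. There the log2 fold change was -1.11 (SE 0.31), with an adjusted p of 0.364 in edgeR and 0.0459 in DESeq2, and DESeq2's call was kept without WT 3 (0.00563) but lost when any of the other 5 libraries was omitted, with 0.296, 0.149 and 0.112 without KO 1, KO 2 and KO 3 and 0.505 and 0.0774 without WT 1 and WT 2. Aph1c is nearly identical to Aph1b (log2 fold change -0.43, edgeR adjusted p = 0.453, also without overlap), so that the division of reads between the 2 genes is uncertain. WT 3 was the lowest WT library for Furin, Aph1c and Aph1b, as for choroid plexus markers, and the part of that tissue was not tested.

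Medians were positive in the lists of enzymes that add sugars to receptors and of regulators of ligand and receptor turnover. No gene in them passed edgeR's threshold. Without overlap, 1 of 6 glycosylation, 3 of 5 ligand ubiquitination and 2 of 8 turnover genes were higher in KO-labelled libraries, and 0 were lower. Over all genes, 8.0% were higher without overlap. Rfng, Mib2, Neurl1a, Numbl and Dtx3, named below, were among these higher genes. Of 6 glycosylation genes 4 were positive (median 0.13): Rfng, one of the Fringe enzymes, had a log2 fold change of 0.29 (edgeR adjusted p = 0.486), Lfng 0.28 and Eogt -0.19. Of 5 ligand ubiquitination genes, which prime the ligand for the pull that opens the receptor, 4 were positive (median 0.23), with 0.23 for Mib2, 0.28 for Neurl1a and 0.38 for Neurl1b (edgeR adjusted p = 0.549, 0.623 and 0.737). Of 8 turnover genes 5 were positive (median 0.17), among them the Notch inhibitor Numbl at 0.34 and Dtx3 at 0.25, while the ubiquitin ligase gene Itch had -0.23 (edgeR adjusted p = 0.491, 0.533 and 0.670).

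In the nucleus, Maml2, a co-activator that binds the receptor fragment on RBPJ, was at 14.3, 14.2 and 13.1 CPM in KO 1 to 3 and at 21.002, 19.0 and 18.9 CPM in WT 1 to 3. The groups stood well apart, with a log2 fold change of -0.50 (SE 0.11) and adjusted p-values of 0.221 in edgeR and 0.0630 in DESeq2, neither past 0.05. The acetyltransferase genes Ep300 and Kat2b had -0.35 and -0.56 (edgeR adjusted p = 0.522 and 0.571). Rbpj, named for its role and not by the rule for genes, was at 42.2, 34.5 and 42.2 CPM in KO 1 to 3 and at 43.4, 45.9 and 44.8 CPM in WT 1 to 3, close but without overlap (log2 fold change -0.17, SE 0.11, edgeR adjusted p = 0.686). Over the 9 genes of the complex 7 were negative (median -0.14). Over the 7 corepressor genes 5 were negative (median -0.09), with -0.42 for L3mbtl3, 0.22 for Cir1 and -0.16 for Spen (edgeR adjusted p = 0.469, 0.604 and 0.725).

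Of 6 direct target genes, Hey2 was the exception to a positive list (median 0.16, 5 positive). Hey2, a repressor gene switched on by Notch, was at 6.54, 5.64 and 6.17 CPM in KO 1 to 3 and at 11.9, 12.7 and 9.86 CPM in WT 1 to 3. As for Notch2, the groups did not overlap and WT 3 was the lowest WT library. For Hey2 the log2 fold change was -0.91 (SE 0.16), with an adjusted p of 0.173 in edgeR and 0.00234 in DESeq2, and DESeq2 gave 0.0845 with WT 1 omitted and 0.0520 with WT 2 omitted, both above the threshold. The part of choroid plexus content in the Hey2 difference was not tested. Hes5, a target gene typical of neural stem cells, was at 12.2, 10.1 and 11.2 CPM in KO 1 to 3 and at 8.34, 10.6 and 9.11 CPM in WT 1 to 3 (log2 fold change 0.26, SE 0.15, edgeR adjusted p = 0.656). Hey1 had 0.15 (edgeR adjusted p = 0.702).

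Both Hey2 and Hes5 carry the RBPJ core TGGGAA, searched on both strands, near their starts. The windows below are shown because the estimated log2 fold changes of these 2 targets had opposite signs. For Hes5 the groups overlapped and the 95% interval, -0.10 to 0.62, included 0, so its sign is not settled. The other direct targets were not searched. Each is 30 bases, 5′ to 3′ on the gene's strand, from the RefSeq promoters of GRCm38.p6, with the core in capitals. The Hey2 windows are chr10:30842973-30843002 and chr10:30842769-30842798 on the minus strand, and the Hes5 windows chr4:154960685-154960714 and chr4:154960829-154960858 on the plus strand.
Hey2 first: tgcgcggtggcaTTCCCAcgcctctgccaa
Hey2 second: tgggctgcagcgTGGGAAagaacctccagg
Hes5 first: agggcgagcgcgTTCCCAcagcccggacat
Hes5 second: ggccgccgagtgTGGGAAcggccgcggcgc
Each gene had 2 matches, 1 on each strand, and 25.6% of all promoter windows held at least 1. None of the windows of the 9 receptor and ligand genes, of which Dll1 has 2, held the core. A match or its lack is a description of these letters only.

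Among 9 non-canonical ligand genes, 8 were tested, 4 of each sign (median 0.09), and Mfap5 had too few counts. Cntn1, an axonal adhesion gene, was at 261, 225 and 321 CPM in KO 1 to 3 and at 347, 391 and 322 CPM in WT 1 to 3 (log2 fold change -0.39, SE 0.16, edgeR adjusted p = 0.535). The groups did not overlap, but KO 3 came within about 1 CPM of WT 3. Dlk2 had 0.49 and the vessel gene Egfl7 0.31 (edgeR adjusted p = 0.612 and 0.614).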

How the data were processed

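The deposited table gives the authors' estimated counts for 61481 RefSeq transcripts in each of 6 libraries, per the file headers, along with the authors' deposited FPKM. The submitters' processing notes name mm10 and limma 3.40.6; an aligner is not named in the sources used here. For each NCBI gene, transcript counts were added up and rounded. Symbols and coordinates came from RefSeq GRCm38.p6. The main test was edgeR 4.0.16, run in R 4.3.3 (TMM, filterByExpr with a minimum count of 10, robust quasi-likelihood, group as the only term, two-sided, threshold 0.05 on adjusted p), with DESeq2 1.42.0 and limma-voom (limma 3.58.1) as alternatives. The procedure was tested on simulated data that did not model the differences in tissue content between these libraries. CPM are TMM-scaled for single genes and scaled to the library total for marker sums. Intervals use a standard error taken as the fold change over the root of F. Replicates differed by more than sampling noise (chi-square per degree of freedom at least 21.7).

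Groups and replicate numbers came from the titles. The genes and lists were chosen with earlier results of these data known. Named are the 9 genes, Zhx2, the 3 genes of smallest p in each pathway list and the 3 genes most alike each of the 9. A protein table was not used here.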

Additional observations from a re-analysis of the deposited data

How the results depend on the processing

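Notch2 was lower in KO-labelled libraries in all 23 alternatives, with log2 fold changes between -1.17 and -0.92, and passed an adjusted p of 0.05 in 8 of them: DESeq2 with 6 libraries, DESeq2 with each library left out (the last set added after seeing the data) and edgeR without WT 3. DESeq2 called 311 genes in all, 1 of the 9 and 2 of the pathway genes; without KO 1, KO 2, KO 3, WT 1, WT 2 and WT 3 it called 275, 257, 317, 139, 348 and 451 genes, 1 of the 9 each time and between 0 and 3 pathway genes. With single libraries left out edgeR called between 0 and 137 genes and between 0 and 1 of the 9 (137 and 1 without WT 3). Whether the replicate numbers pair the libraries is not known. Correlations of deviations were -0.16, -0.07 and -0.04 for libraries of the same number and ran from -0.15 to 0.18 for the other pairs, which cannot settle it. The replicate block gave 0 calls, with -0.98 for Notch2 (edgeR adjusted p = 0.224).

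Signs of the small differences turned. Notch3 was -0.01 in limma-voom (-0.0076) and under the replicate block (-0.0068), -0.043 with the striatal covariate, -0.16 with the most abundant transcript and -0.57 with KO 1 alone against WT. Jag1 was -0.069 with the striatal covariate, and Jag1 and Dll3 were -0.13 and -0.16 with KO 1 alone. With single libraries left out, in edgeR, Notch1 ran from -0.20 to 0.041, Notch3 from -0.11 to 0.27, Notch4 from -0.15 to 0.043, Jag1 from -0.11 to 0.16 and Jag2 from -0.033 to 0.23. DESeq2 turned the sign of Notch3 without KO 2 (-0.091), KO 3 (-0.12) or WT 1 (-0.010), Jag1 without KO 3 (-0.11) or WT 1 (-0.079), Notch4 without KO 1 (0.028) or WT 3 (0.019), and Notch1 (0.044) and Jag2 (-0.030) without WT 2. The cause was not tested. Dll1 and Dll4 kept their sign in all alternatives that tested them; Dll3 and Dll4 did not reach the filter of 5 CPM. Depth limits Dll3 and Dll4 most, with 32.3 to 62 counts a library.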
